A study of Homo sapiens with 4 samples.

Results

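The regions described here are 1068 stretches of the genome that carried a strong CTCF peak in both aclarubicin libraries and no peak in either daunorubicin library. They were selected on their aclarubicin fold enrichment and on the absence of daunorubicin calls. They come from CTCF chromatin immunoprecipitation sequencing (ChIP-seq) of K562, a human erythroleukaemia cell line. K562 cells had been treated for 4 hours with 10 µM aclarubicin or 10 µM daunorubicin, and each drug had 2 biological replicates. The peaks of all 4 libraries were merged into 13959 regions on chromosomes 1 to 22 and X, and 8823 of these had a peak in both aclarubicin libraries. A region counted as strong when the mean of its percentiles of fold enrichment within the 2 aclarubicin lists was at least 50, and 5189 regions did. Of the strong regions, 1068 (20.6%) had no daunorubicin peak and are called lost regions, 825 had a peak in 1 daunorubicin list, and 3296 were called in all 4 lists and are called retained regions. Among all regions with a peak in both aclarubicin libraries, strong or weak, the share without a daunorubicin peak was 37.7%, and among the weak ones it was 62.1%. No untreated library was analysed here, so "lost" means without a call relative to aclarubicin, not relative to untreated cells.

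CTCF is a zinc-finger protein that binds a long DNA motif, blocks the passage of the cohesin ring and thereby anchors chromatin loops and domain borders. Its sites range from strongly bound ones shared by most cell types to weaker ones that vary with DNA methylation and chromatin state. Aclarubicin and daunorubicin are both anthracyclines, which slide between the base pairs of DNA and can evict histones. Daunorubicin also traps topoisomerase II on broken DNA, whereas aclarubicin, which carries a longer sugar chain, acts without producing such breaks.

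Absence from both daunorubicin lists and fold in the aclarubicin lists chose these regions, so both are described and neither was tested. With 2 libraries per drug, an exact permutation test could not go below p = 0.333. Where a library has no call, its list gives no value at all for the region. The shares below carry 95% Wilson intervals, which treat neighbouring regions as independent and cover counting error only.

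The share of strong regions that were lost fell steeply with strength. It was 37.7% (377 of 999, 34.8% to 40.8%) at percentiles 50 to 60 and 20.8% (226 of 1088, 18.5% to 23.3%) at percentiles 70 to 80. Among regions at percentile 90 and over it was 3.96% (39 of 984, 2.91% to 5.37%). At percentile 99 and over, 1 of 94 regions was lost (1.06%, 0.188% to 5.78%). Lost regions were therefore concentrated among the less strong of these regions, with a median percentile of 66.1 in aclarubicin replicate 1 and 65.3 in replicate 2, against 80.9 and 80.8 for retained regions. The median fold of the lost regions was 9.21 in replicate 1 and 9.03 in replicate 2, and that of the retained regions was 11.3 and 11.1.

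**Figure D1:**
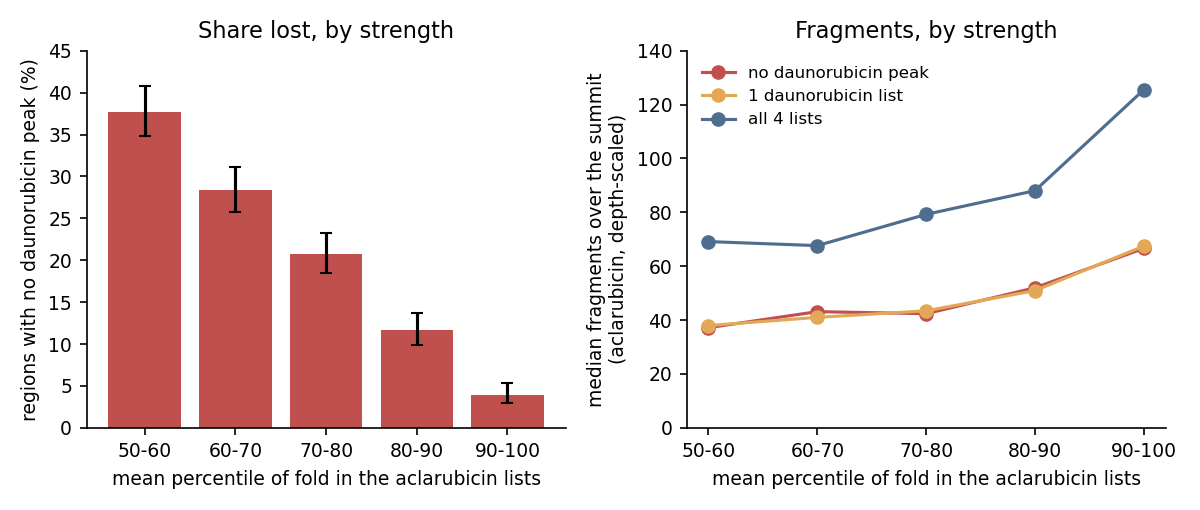
The left panel shows the share of strong aclarubicin regions with no daunorubicin peak in steps of 10 points of the mean percentile of fold (bars, with 95% Wilson intervals), and the right panel the median number of fragments over the summit, scaled to the depth of aclarubicin replicate 1, for regions in no, 1 or both daunorubicin lists. The share falls from 37.7% to 3.96%, and in each step the regions in no list and in 1 list have fewer fragments than those in all 4 lists.

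Fold is a ratio, and the lost regions combined few fragments with a low background. Both quantities, the fragments over the summit and the background expected there, were solved for each peak from the deposited fold and −log10 p, assuming a common peak-calling formula. Lost regions had a median of 44 fragments in aclarubicin replicate 1 and 45 in replicate 2. Retained regions had 88 and 91, and the weak regions without a daunorubicin peak, which rank far lower by fold, had 37 and 39. The median background was 3.63 and 3.89 fragments at lost regions, 6.81 and 7.14 at retained regions, and 6.27 and 6.76 at the weak ones. In fragments the lost regions thus lay near the weak regions, while in background they lay below both other groups.

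The same difference was seen at equal fold, where the assumed formula ties a lower background to fewer fragments, so these are not separate observations. At percentiles 50 to 60, the median was 37.2 fragments over a background of 3.82 at lost regions and 69.1 fragments over 7.84 at retained regions (means of both aclarubicin libraries, scaled to the depth of replicate 1). At percentile 90 and over, the medians were 66.6 fragments over 3.74 and 125.5 fragments over 7.25. Strong regions with a peak in 1 daunorubicin list lay near the lost ones, with medians of 41.0 fragments over 3.67 at percentiles 60 to 70 (lost, 43.1 over 3.97) and 67.5 over 3.50 at 90 and over.

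**Figure D2:**
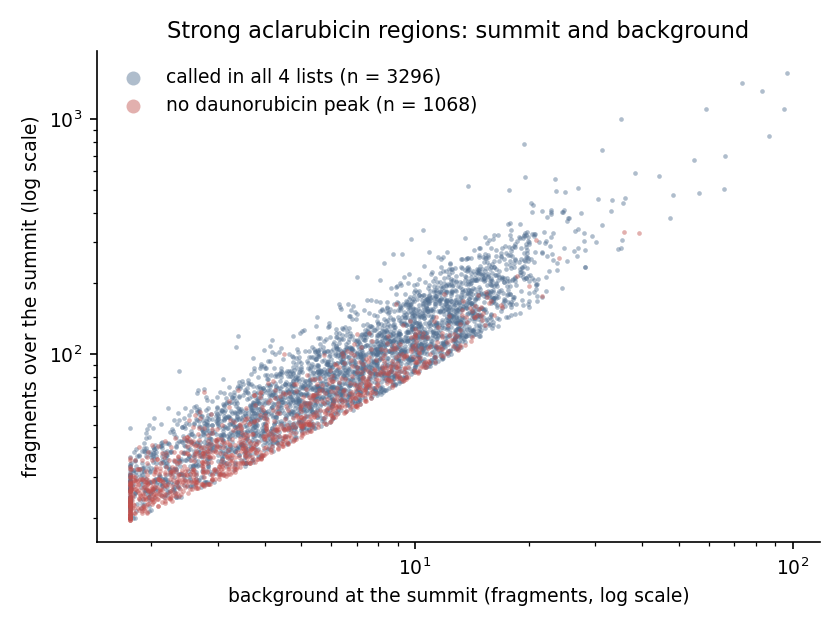
Each point is a strong aclarubicin region, with the background at its summit on the horizontal axis and its fragments on the vertical axis (both log scales, means of the aclarubicin libraries scaled to the depth of replicate 1). The 1068 lost regions crowd the lower left, with few fragments and little background, and the lower edge of the cloud is the limit on fold that the choice of strong regions sets.

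Sorted by fragments instead of fold, the share of strong regions that were lost fell from 43.9% (260 of 592) under 30 fragments to 3.13% (23 of 735) at 150 fragments and over. At like numbers of fragments, the share was larger where the background was higher, except among the regions with the most fragments. Between 40 and 60 fragments, 17.1% (14.0% to 20.6%) of the strong regions with a background under the median of 3.78 were lost, and 30.6% (26.7% to 34.7%) of those at or over it. The strong regions with a lower background had the higher fold, with a median percentile of 84.8 against 63.4. At 100 fragments and over the shares were 6.48% and 6.61%.

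Lost regions were narrower than retained ones, and by less at like numbers of fragments. Their median width was 384.5 bp in aclarubicin replicate 1 and 394 bp in replicate 2, against 444 and 462 bp for retained regions. Under 30 fragments the medians were 323.5 bp at lost and 329 bp at retained regions (means of both aclarubicin libraries), between 30 and 40 fragments 353 and 361.5 bp, and between 50 and 60 fragments 401 and 414 bp. Between 40 and 50 fragments they were 393 and 391 bp, between 60 and 80 fragments 434 and 435 bp, and from 100 to 150 fragments 484.5 and 479 bp, so neither group was narrower throughout. Across the lost regions, width rose with fragments (Spearman's rho 0.751 over 1068 regions, which are not independent replicates).

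The aclarubicin replicates placed the lost regions alike. The 2 summits lay a median of 15 bp apart, and within 50 bp of each other in 1002 of 1068 lost regions (93.8%), against 96.5% of retained regions and 77.5% of the weak regions without a daunorubicin peak. The depth-scaled ratio of fragments in replicate 2 to replicate 1 had a median of 0.989 and lay between 0.490 and 1.99. Each lost region held a single peak in each aclarubicin list.

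The lost region with the highest mean percentile was on chromosome 7, 89783467 to 89783953, in the coordinates of the files (GRCh37/hg19 per the submitters' processing notes). It had 67 fragments in aclarubicin replicate 1 and 73 in replicate 2, over backgrounds of 2.58 and 3.05. Its summits were 17 bp apart, and the nearest daunorubicin peak was 1607 kb away. The second, on chromosome 8, 81152772 to 81153271, had 110 and 93 fragments. The third, on chromosome 14, 102605488 to 102606059, had 163 and 169 fragments over backgrounds of 8.66 and 9.50, and a daunorubicin peak lay 42.2 kb from it. These 3 regions thus reached a high fold by different routes, the first with few fragments over a low background and the third with many over a higher one.

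The fourth, on chromosome 7, 35077467 to 35077932, had folds of 17.8 and 14.8 and summits 16 bp apart. The fifth, on chromosome 15, 91790805 to 91791211, had folds of 16.0 and 15.2. The sixth, on chromosome 14, 45722230 to 45722719, had folds of 16.6 and 14.5, with the nearest daunorubicin peak 4378 kb away and no other region of both aclarubicin lists within 1 Mb. The seventh, on chromosome 6, 127837669 to 127838228, had 65 and 64 fragments and likewise no such neighbour within 1 Mb. Next came chromosome 11, 67559810 to 67560189, with folds of 15.2 and 15.3. It had 24 such neighbours within 1 Mb, 10 of them without a daunorubicin peak, near the 37.7% among all such regions. The remaining 4 of the 12 highest lay on chromosome 7 (141437738 to 141438462), chromosome 11 (8076657 to 8077170), chromosome 5 (140305939 to 140306540) and chromosome 4 (4386506 to 4386982), with folds between 14.2 and 16.1. The 12 regions therefore ranged from isolated sites to sites in dense neighbourhoods.

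By fragments, the highest lost regions were others, picked after their values were seen. The region on chromosome 9, 137466587 to 137467020, had 350 and 325 fragments over backgrounds of 37.4 and 35.4. Chromosome 22, 20048328 to 20048920, had 339 and 330 fragments over 40.0 and 39.8. Chromosome 1, 47902025 to 47902597, had 319 and 303 fragments over 21.1 and 21.5, and a daunorubicin peak lay 0.835 kb from its edge. The first and second had mean percentiles of fold of only 65.0 and 57.2, and the third 93.0.

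Regions on either side of the threshold hardly differed. The 3 lost regions just inside it had mean percentiles of 50.02, 50.03 and 50.05, and the one nearest to the threshold, on chromosome 5, 115697042 to 115697399, had folds of 7.74 and 7.28 and 23 and 20 fragments. The 3 regions just outside it, at 49.99, 49.97 and 49.96, also lacked a daunorubicin peak, and the nearest, on chromosome 5, 33588899 to 33589198, had folds of 6.96 and 8.04 and 18 and 22 fragments.

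How far the fragments at lost regions must have dropped was worked out against the retained regions. At retained regions, the depth-scaled number of fragments in daunorubicin replicate 1 was a median of 0.504 of that under aclarubicin (5th to 95th percentile 0.271 to 1.05), and in daunorubicin replicate 2 it was 0.641 (0.325 to 1.34). The depth-scaled background at these regions was also lower under daunorubicin, with median ratios of 0.637 in replicate 1 and 0.716 in replicate 2. It was below its aclarubicin level at 90.3% and 84.3% of them, so the ratios of fragments are not ratios over background. The 2 aclarubicin replicates differed by a median ratio of fragments of 0.990 and the 2 daunorubicin replicates by 1.27 at the same regions. To reach the lowest −log10 p called in daunorubicin replicate 1, which was 5.28, a lost region with its aclarubicin background scaled by depth needed a median of 15 fragments. That is a median of 0.341 of its aclarubicin level, with a highest value of 0.524. In replicate 2 the median was 13 fragments, or 0.367 of the aclarubicin level, with a highest value of 0.565. All 1068 regions would have been past that p in both libraries at their aclarubicin level. At the median ratio of the retained regions, 1062 would have been past it in replicate 1 and 1068 in replicate 2.

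**Figure D3:**
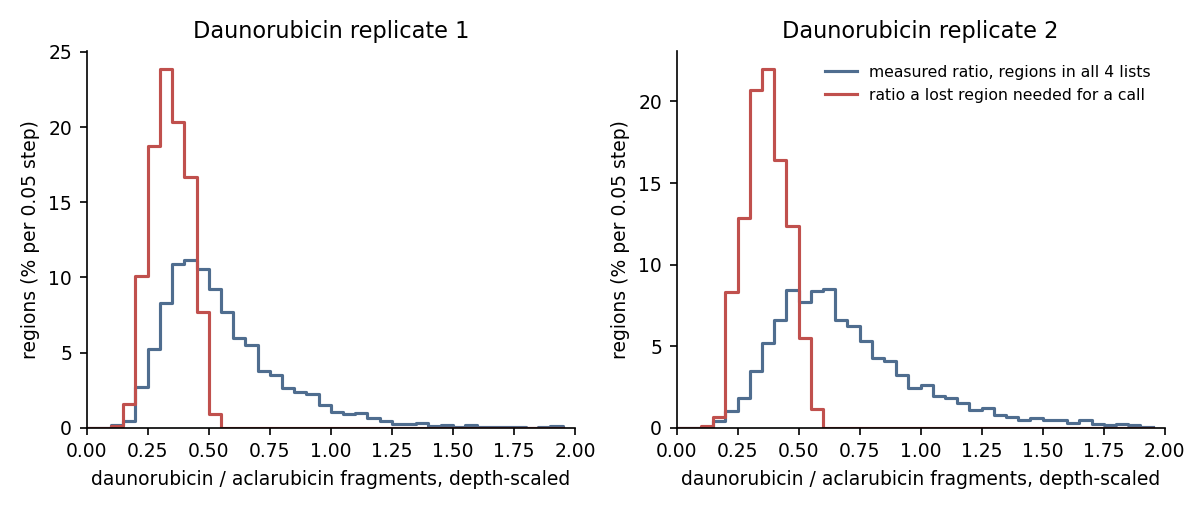
For each daunorubicin replicate, the blue line shows the measured depth-scaled ratio of daunorubicin to aclarubicin fragments at the 3296 retained regions, and the red line the ratio at which each of the 1068 lost regions would have reached the lowest −log10 p of that list (percentage of regions per step of 0.05; ratios of 2 and over are not shown). The ratios needed reach up to 0.524 and 0.565, while the retained regions have medians of 0.504 and 0.641, and those of replicate 1 overlap with the needed ratios more.

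These bounds depend on the level of p that a call takes and on the background assumed. With the 5th percentile of each list's −log10 p (9.21 and 9.61) in place of its lowest value, the ratio needed had a median of 0.467 in replicate 1 and 0.535 in replicate 2, and 633 and 789 regions would have been past it at the median ratio of the retained regions. With the lowest p kept and the background also scaled by its median ratio at retained regions, fewer fragments were needed. The median was 12 fragments in replicate 1 and 11 in replicate 2, or 0.273 and 0.311 of the aclarubicin level. At the median ratio of the retained regions, 1065 and 1068 regions would then have been past that p. The retained regions also had to be called in both daunorubicin libraries, which keeps low ratios out of their range. A call further needs a minimum width, which was not modelled.

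Lost regions lay in sparser surroundings than retained ones. A median of 8 other regions with peaks in both aclarubicin libraries lay within 1 Mb of a lost region, against 7 for strong regions in 1 daunorubicin list and 13 for retained regions. Among strong regions with under 5 such neighbours, 26.7% were lost (338 of 1264, 24.4% to 29.2%), and among those with 20 or more, 14.1% were (192 of 1360, 12.4% to 16.1%). Fragments moved with this measure: the median was 38.7 in the sparsest group and 118.8 in the densest, with backgrounds of 2.70 and 10.8. Given each region's percentile step and fragment class, 326.5 lost regions would be counted in the sparsest group and 200.6 in the densest, so the observed numbers were 1.04 and 0.957 times those. With 5 to 9 and 10 to 19 neighbours they were 0.927 and 1.06 times. The counts from strength were taken from the same lost calls, and fragments moved with the number of neighbours. Strength and surroundings therefore cannot be told apart here.

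Chromosomes differed in the same way. Chromosome 19, which is dense in genes, had the lowest share of lost regions, 11.3% (43 of 379, 8.53% to 14.9%), followed by chromosome 16 with 13.0% (31 of 238). Chromosome 18 had the highest, 35.1% (27 of 77, 25.3% to 46.2%), followed by chromosome 4 with 29.6% (55 of 186) and chromosome 13 with 28.6% (18 of 63). Across the 23 chromosomes the share fell with the number of aclarubicin regions per Mb (Spearman's rho -0.636) and with the median background at strong regions (-0.720), both given as descriptions. The median background was 10.9 on chromosome 19 and 2.86 on chromosome 18. Given percentile and fragments, the observed number was 0.791 times that counted from strength on both chromosome 19 and chromosome 16, 1.27 times on chromosome 18 and 1.26 times on chromosome 22, and between 0.890 and 1.21 times on the other 19. That adjusted number had a weaker rank correlation with the number of aclarubicin regions per Mb (rho -0.290) than the share itself.

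Distances to daunorubicin peaks were measured for the lost regions only, so they are not set against those of other regions. The choice of lost regions also excluded any overlapping daunorubicin peak. The nearest peak of either daunorubicin list lay a median of 80.4 kb away, under 1 kb away from 14 regions and under 10 kb away from 118. By list, the median was 120.4 kb to the peaks of replicate 1 and 94.3 kb to those of replicate 2. For 48 regions no daunorubicin peak lay within 1 Mb. The 3 strongest of these were the first and sixth regions given above and a region on chromosome 10, 37177862 to 37178304, with folds of 13.9 and 15.0 and 37 and 45 fragments. Regions called in both daunorubicin lists and in neither aclarubicin list lay a median of 1834 kb away, and 2 lost regions had one within 1 kb.

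Neighbouring strong regions were compared next. Of the 364 strong regions within 50 kb of a lost region, 23.4% (19.3% to 28.0%) were lost, and of the 1349 strong regions within 50 kb of a retained region, 14.2% (12.5% to 16.2%) were. A region can be in both sets, and 20.6% of all strong regions were lost. The share around lost regions was higher in each step of 10 percentile points, with 42.9% against 27.8% at percentiles 50 to 60 and 3.39% against 2.55% at 90 and over, but the intervals overlapped in each step (32.4% to 54.0% and 22.9% to 33.4% at percentiles 50 to 60). Fragments were not matched, and the stretch of chromosome 5 described next was included. The shares were 17.5% (9.82% to 29.4%) against 11.3% (8.19% to 15.5%) within 10 kb, 26.0% against 12.9% within 20 kb and 20.2% against 19.6% within 1 Mb. Leaving out that stretch, the shares within 50 kb were 21.0% (17.1% to 25.6%) and 14.3% (12.5% to 16.2%). Around lost regions the share then lay near that of all strong regions, and around retained regions it lay under that. All strong regions include those with no strong neighbour within 50 kb, however, and the share lost was larger in sparse surroundings. The share of all strong regions is therefore not a like comparison for either set.

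**Figure D4:**
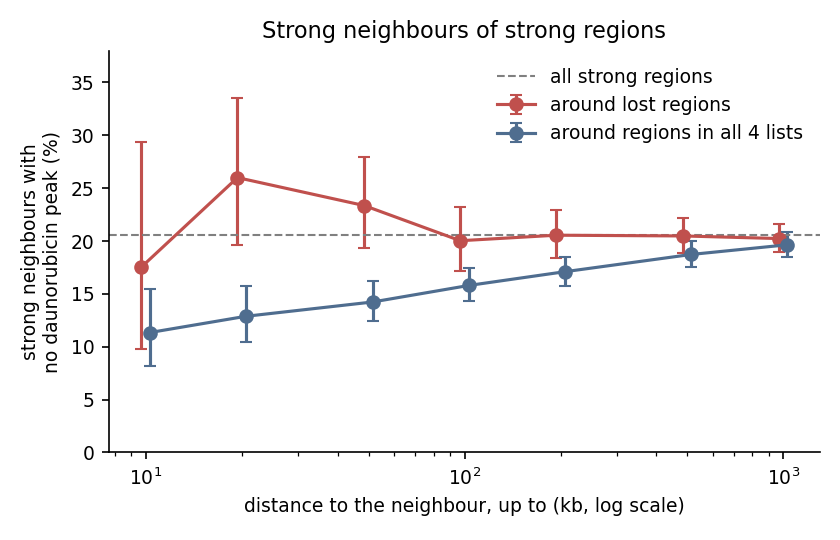
Share of strong neighbours with no daunorubicin peak (vertical axis, with 95% Wilson intervals) among those up to a given distance (horizontal axis, log scale) from a lost or a retained region; the dashed line is the share of all strong regions, 20.6%. The points around retained regions lie lowest at short distance, and both curves meet near the line at 1 Mb.

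Neighbours called in all 4 lists had higher ratios near lost regions. At the 311 regions called in all 4 lists within 50 kb of a lost region, the median ratio of daunorubicin to aclarubicin fragments lay between 0.547 and 0.702 in the 4 pairs of libraries. Around retained regions (1321 regions) it lay between 0.501 and 0.646, and was lower in each of the 4 pairs. The pairs share libraries and regions, and neither strength nor fragments were matched. With the libraries of each drug averaged, the median ratio was 0.562 near lost and 0.517 near retained regions for strong neighbours. For weak neighbours it was 0.788 and 0.777. The need for a call in both daunorubicin lists keeps low ratios out, and the cause of the difference was not tested. Along the strong regions of each chromosome, the next region was lost in 25.1% of 1064 cases after a lost region and in 19.5% of 4102 cases after another strong region, the stretch of chromosome 5 included. Consecutive lost regions formed 801 runs, of which 609 held 1 region, 136 held 2 and 56 held 3 or more. Another lost region lay within 50 kb of 85 lost regions (7.96%), which are the lost ones among the 364 strong neighbours given above. Any strong region lay within 50 kb of 27.3% of lost regions, against 37.8% of retained regions. The nearest pair lay 4641 bp apart on chromosome 2, at 37007245 to 37007713 and 37012355 to 37012703. The next were 5478 bp apart on chromosome 5, at 140473939 to 140474334 and 140479813 to 140480160, and 6124 bp apart on chromosome 8, at 22769374 to 22769755 and 22775880 to 22776294.

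The most lost regions in 1 Mb lay on chromosome 5, in a stretch singled out after its values were seen. In chromosome 5, 140000001 to 141000000, 12 strong regions were lost, whereas the next highest number in any of 1770 such 1 Mb stretches was 5. The stretch held 22 strong regions, so 54.5% of them were lost. Over the 47 such stretches with 10 or more strong regions the median share was 9.09%, but another of them reached 50%, so the stretch stood apart by number more than by share. Of its other strong regions, 4 were called in 1 daunorubicin list and 6 in all 4 lists. Of the 5 weak aclarubicin regions there, 4 had no daunorubicin peak, against 62.1% of all weak aclarubicin regions, too few to tell apart. Given percentile and fragments, 5.11 lost regions would be counted there. From general knowledge of the human genome, and not from an annotation of these files, this part of chromosome 5 holds the clustered protocadherin genes. They encode cell-surface proteins of neurons, and their alternative promoters and enhancers are textbook CTCF sites.

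The 12 lost regions spanned 389 kb, from 140235939 to 140625125. Their fragments lay between 20 and 68 with a median of 33 in aclarubicin replicate 1, and between 23 and 85 with a median of 37.5 in replicate 2. Their folds lay between 7.49 and 14.9 and between 7.36 and 15.0. Consecutive lost regions from 140262043 to 140566835 made up the longest run in the genome, 9 in all, and no daunorubicin region lay between its ends. In that run, the region at 140305939 to 140306540 had 68 and 85 fragments and folds of 14.9 and 15.0. The region at 140479813 to 140480160 had 48 and 40 fragments and folds of 13.5 and 11.7, and the one at 140535160 to 140535557 had 33 and 50 fragments. The remaining members of the run between 140473939 and 140566835 had folds of 7.36 to 10.3.

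Strong regions on either side were called under daunorubicin, with fewer fragments. The region at 140201595 to 140202196 had 59 and 68 fragments under aclarubicin and 21 and 25 under daunorubicin. On the other side, the region at 140904226 to 140904747 had 122 and 122 against 30 and 26, and the one at 140937345 to 140937873 had 106 and 127 against 72 and 69. Within the cluster, the regions at 140255311 to 140255733 and 140571721 to 140572138 were called in daunorubicin replicate 2 and not in replicate 1. The former had 19 fragments against 46 and 28, and the latter 29 against 55 and 51. Depth was not accounted for in these counts, and it was lower in daunorubicin replicate 2 (0.814 of aclarubicin replicate 1). At the 6 strong regions of the stretch in all 4 lists, the depth-scaled ratio of daunorubicin to aclarubicin fragments had a median of 0.359 in replicate 1 and 0.467 in replicate 2, against 0.504 and 0.641 over all retained regions. These 6 regions are few and lay outside the span of the lost regions. Both medians lay within the 5th to 95th percentile of all retained regions (0.271 to 1.05 and 0.325 to 1.34).

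**Figure D5:**
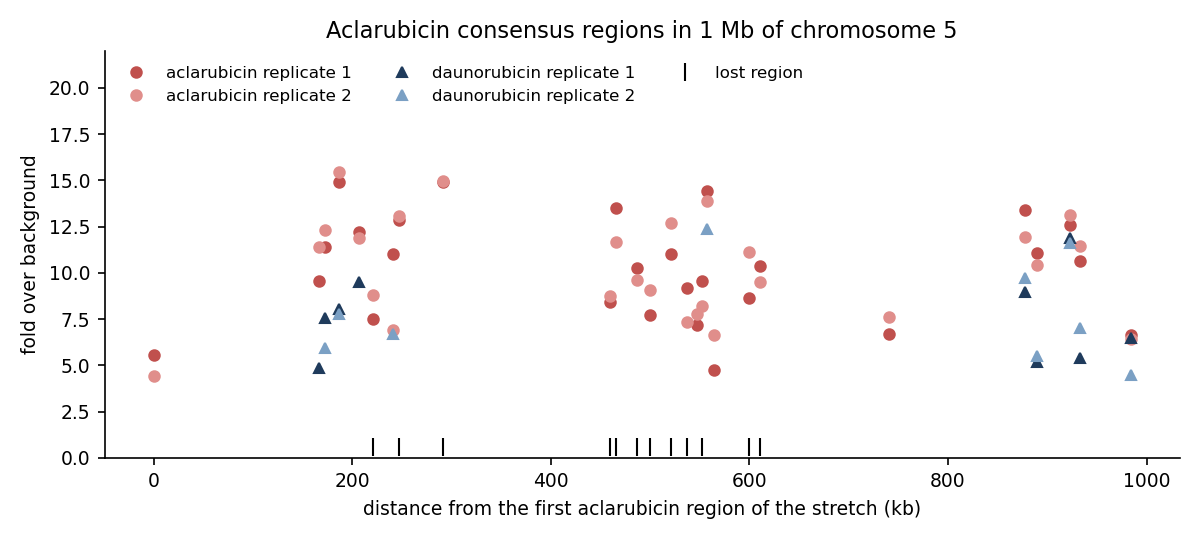
Fold over background of every region called in both aclarubicin libraries in 1 Mb of chromosome 5, against the distance in kb from the first of them; circles are aclarubicin and triangles daunorubicin libraries, and ticks along the bottom mark the 12 lost regions. The lost regions sit together in the middle of the stretch, and triangles appear mainly towards either side.

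The number of lost regions depended on list length and on 1 library. With each list reduced to its 5886 peaks of highest −log10 p, 329 regions were lost, 4 of them in the stretch of chromosome 5, and without daunorubicin replicate 2 the number was 1641. Ranked by −log10 p, 1074 regions were lost, 685 of them among the 1068, and 6 lay in the stretch of chromosome 5.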

How the data were processed

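CTCF ChIP-seq peak lists of 4 K562 libraries were used, 2 per drug, with drug and replicate taken from the labels. The deposited narrowPeak files (10 columns, no header, 1 list per library) give the authors' fold ratio, −log10 p, −log10 q, summit and a score that equalled the whole part of 10 times −log10 q in at least 99.9% of peaks. Bowtie2, Picard and bedtools and the build GRCh37/hg19 are named in the submitters' processing notes, without roles. The peak caller, its settings and any control library are not given in the sources used here.

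The lists held 10633 and 10711 peaks (aclarubicin) and 5886 and 6638 peaks (daunorubicin). Intervals sharing 1 bp were merged (0 of 13959 regions differed from bedtools 2.31.1), and a region took its strongest peak per list. Assuming fold = (k + 1)/(λ + 1) and a Poisson p of more than k fragments, k and background λ were solved for each peak. In each list, 100% of the solved k came out whole, to a tolerance of 0.02. The solving was also tested on data simulated with the same formula, which checks the arithmetic and not the formula. The lowest λ over the shortest width gave a relative depth of 1, 1.04, 0.997 and 0.814. Read totals are unknown. Counts expected from strength used the share lost in each combination of a percentile step and 1 of 3 fragment classes. Alternatives were other thresholds, ranks, list lengths, distances and each replicate left out.

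The members and lists were chosen with earlier results of these data known. Named regions were the 12 with the highest percentile, 3 on each side of the threshold, the 3 strongest without a daunorubicin peak within 1 Mb and the 3 nearest pairs; others are said to be chosen afterwards. Start sites, motifs and GC content were planned and not analysed here, since the tables at hand are for GRCh38. Analyses used Python 3.11.15, numpy 2.4.6, pandas 2.3.3, scipy 1.17.1 and matplotlib 3.10.9.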

Additional observations from a re-analysis of the deposited data

How the results depend on the processing

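The number of lost regions was 2294 and 273 at percentile thresholds of 25 and 75, 329 with lists of equal length, and 1191 to 1641 with 1 replicate left out. As a share of strong regions, 20.6% became 31.0% and 10.6% at those thresholds, 11.8% with equal lists, 23.7% at −log10 q of at least 10, and 22.2% to 31.6% with 1 replicate left out, where fewer lists must agree. Median fragments were 55 at the threshold of 75, 65.5 ranked by −log10 p and 42 to 45 with 1 replicate left out, against 44.5. Median width was 418 and 409 bp under the first 2 of these and 375 to 391.5 bp with 1 replicate left out, against 389 bp. The median distance to a daunorubicin peak was 114 kb at the threshold of 75 and 146 kb to regions in both daunorubicin lists. The share of all neighbours within 50 kb, strong or weak, that had no daunorubicin peak was 41.3%, against 34.8% around retained regions. It was 23.4% for strong neighbours (21.0% without the stretch of chromosome 5), 60.8% for weak ones, and 43.6% to 48.6% with 1 replicate left out. By distance it was 37.1% within 10 kb, 38.4% within 100 kb and 38.4% within 500 kb. The share around retained regions was lower each time, at 57.5% for weak neighbours and 31.8%, 36.4% and 37.2% at those distances. These 4 values, and that without daunorubicin replicate 1, lay inside the intervals around lost regions. Among all regions in both aclarubicin lists the share was 37.7%, and among the weak ones 62.1%. Lost regions in the stretch of chromosome 5 numbered 4 at the threshold of 75 and with equal lists, 6 ranked by −log10 p, and 11 to 14 with 1 replicate left out. With the stricter p in the bound on fragments, 633 regions in place of 1062 would have been past it in daunorubicin replicate 1. For all of these, the cause was not tested. The alternatives on chromosome 5, on p, on the background in the bound and on leaving that stretch out were chosen after seeing the data. No paired analysis was possible because the results come from no test, and the labels do not say that the replicate numbers pair libraries across drugs. Start-site, motif and GC alternatives were not run.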
